A study of Mus musculus with 2 samples.

Results

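The desmosome genes are 10 listed genes, taken as every probe whose symbol in the deposited annotation, or whose symbol by gene ID, is Dsg1a, Dsg1b, Dsg2, Dsg3, Dsc1, Dsc2, Dsc3, Dsp, Jup or Pkp1. This gave 13 of the 25697 probes on the array, for 9 of the 10 genes. A probe counted as detected where its detection p-value was 0.01 or lower in either sample, which 8 of the 13 probes met. They represented 7 genes, of 8564 detected genes on the array. Dsc2 and Dsg1a were not detected, and no probe carried the symbol or gene ID of Dsp.

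Desmosomes are junctions that couple the intermediate filaments of neighbouring cells and give the epidermis its mechanical strength. Desmogleins (Dsg) and desmocollins (Dsc) are cadherins that bind across the gap between cells in the presence of extracellular calcium. Inside the cell, plakoglobin (Jup) and plakophilins (Pkp) bind the cadherin tails, and desmoplakin (Dsp) ties the plaque to keratin filaments. In the epidermis Dsg2, Dsg3, Dsc2 and Dsc3 are known as cadherins of the basal and lower layers, whereas desmoglein 1 and Dsc1 are typical of the upper layers. In the mouse desmoglein 1 is encoded by several near-identical gene copies, among them Dsg1a and Dsg1b.

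RNA came from the back skin epidermis of C57BL6 mice at postnatal day 5, separated from the dermis with dispase. The control sample had the genotype CaSR fl/fl CON (littermate controls) and the knockout sample CaSR fl/fl with a K14-driven Cre recombinase, K14 being a keratin of basal keratinocytes. Both groups therefore carried floxed alleles of the calcium-sensing receptor gene (Casr), and deletion was directed at K14-expressing keratinocytes. Each sample was a pool of 3 mice on 1 bead array. No value therefore has a replicate error, no test was possible, and precision is limited by having 1 array for each genotype.

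One protocol sentence speaks of a vitamin D receptor knockout, while the other labels of both samples name the calcium-sensing receptor. The single Casr probe was not detected in either sample (signals of 122.9 in the control and 148.2 in the knockout), so it gave no check of the genotype. Keratinocyte markers were detected (6 of 6 basal, 4 of 4 spinous and 5 of 5 granular genes). Markers of other cells were detected as well (3 of 6 fibroblast, 1 of 3 endothelial, 4 of 4 melanocyte, 4 of 4 T cell, and 5 of 5 Langerhans and myeloid genes). So were 3 of 4 skeletal muscle and 1 of 3 Merkel cell genes. Of the endothelial markers Egfl7 was detected and Pecam1 and Cdh5 were not. Of the fibroblast markers Col1a1 was detected close to the floor, and Col1a2, Col3a1 and Lum were not detected. Dcn and Vim lay well above the floor. Dcn read 519.2 in the control and 502.7 in the knockout on its brightest probe, and Vim read 1092 and 935.5.

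Signals below are the authors' normalised linear signals, and a ratio is knockout over control on the log2 scale. Before the ratio was taken, signals were raised to a floor, the weakest detected signal of the same array (164.9 for the control and 165.9 for the knockout). A gene with several probes is represented by its brightest detected probe. As a scale of precision, the log2 ratios of detected probes of one gene spread around each other with an SD of 0.11 (pooled, 1840 genes). Doubling this SD gives 0.22, or 1.17-fold, called 2 SDs between probes below. These probes share the pools and the arrays, so this spread contains no variation between mice.

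The comparison asks whether desmosome transcripts differ between epidermis labelled as a keratinocyte knockout of the receptor and control epidermis. The levels were close in both samples. Of the 7 detected members, 0 differed by at least 1.5-fold and 0 by at least 1.2-fold, where 0.42% and 5.86% of all detected genes did. Their log2 ratios ran from -0.06 (Dsc1) to 0.17 (Dsc3), all within 2 SDs between probes. The ratio was above 0 in 5 of the 7, compared with 52.1% of all genes, and the median was 0.08 over the members and 0.01 over all genes. In a whole tissue extract, fewer cells of a type and less RNA in each cell cannot be told apart.

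**Figure D1:**
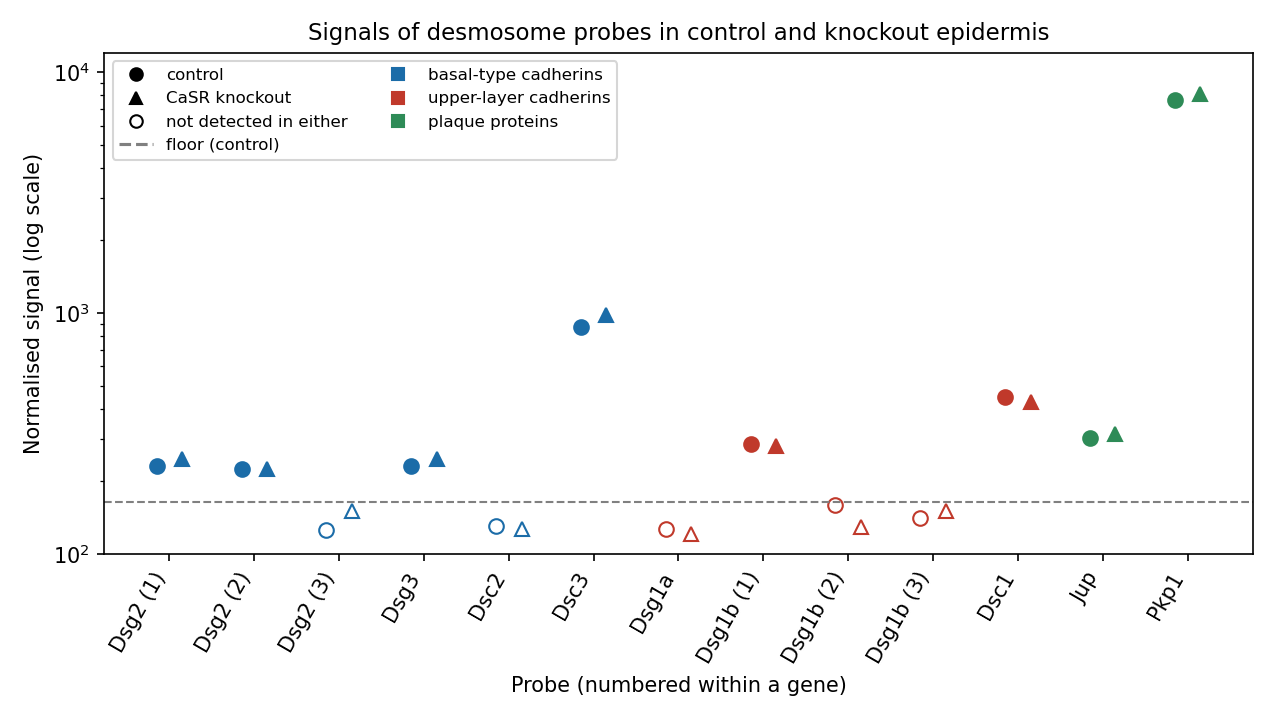
Normalised signal (log axis) of each of the 13 probes in the control (circles) and knockout sample (triangles), 1 pooled array each, with probes of one gene numbered and open symbols for probes not detected in either sample. Circle and triangle lie close together in every detected pair, and the undetected probes of Dsc2, Dsg1a, Dsg2 and Dsg1b lie below the floor of 164.9. Levels of different probes are not comparable with each other.

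Of the basal-type cadherins, Dsc3 (desmocollin 3, the main desmocollin of the lower epidermis) had a signal of 875.7 in the control and 983.6 in the knockout. The latter was 1.12-fold higher, a log2 ratio of 0.17. This was the highest ratio of the detected members, and 90.0% of all genes had a lower one. Before normalisation the same probe read 1078 in the control and 1307 in the knockout, a log2 ratio of 0.28, on arrays whose median gene was shifted by 0.09.

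Dsg3 (desmoglein 3, the pemphigus vulgaris antigen) had signals of 230.8 in the control and 247.4 in the knockout, a log2 ratio of 0.10. Both signals are weak and close to the floor. With the background removed by a normal-exponential model, the pair became 134.8 and 155.2, and the log2 ratio was 0.20. Uncorrected background shrinks the ratio of a dim probe.

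Dsg2 (desmoglein 2, widespread in simple epithelia and in the heart) was measured by 3 probes that disagreed. The brightest read 232.2 in the control and 248.3 in the knockout, a log2 ratio of 0.10. The next read 225.9 and 224.4, a log2 ratio of -0.01. The last read 125.6 and 150.1 and was not detected. The direction for Dsg2 thus depended on the probe, and the mean of the detected probes was 0.04.

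Dsc2 (desmocollin 2) read 130.6 in the control and 126.9 in the knockout, neither above background, and has no ratio. The basal-type cadherins as a group therefore rest on 3 of 4 genes, all 3 with a ratio above 0 by the brightest probe, and a median of 0.10.

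Of the upper-layer cadherins, Dsc1 (desmocollin 1, a cadherin of differentiated keratinocytes) had a signal of 447.8 in the control and 428.1 in the knockout. The log2 ratio was -0.06, a difference of 1.05-fold, and 28.2% of all genes had a lower ratio. On the signals before normalisation it was 0.04, below the median gene of those signals.

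Dsg1b (a copy of desmoglein 1, the target of the blistering disease pemphigus foliaceus in humans) read 285.3 in the control and 280.0 in the knockout on its detected probe, a log2 ratio of -0.03. Its other probes were not detected in either sample. One of them read 159.7 in the control and 129.5 in the knockout, and the last read 140.4 and 151.4, so these dim probes pointed in opposite directions.

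Dsg1a (another desmoglein 1 copy) read 127.4 in the control and 121.5 in the knockout, neither above background. Since the copies are near-identical, the signal on a desmoglein 1 probe may contain transcripts of its relatives. The upper-layer group rests on 2 of 3 genes, both with a ratio below 0 and a median of -0.05, which turned to 0.05 on signals before normalisation and 0.01 after these were scaled by their medians.

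**Figure D2:**
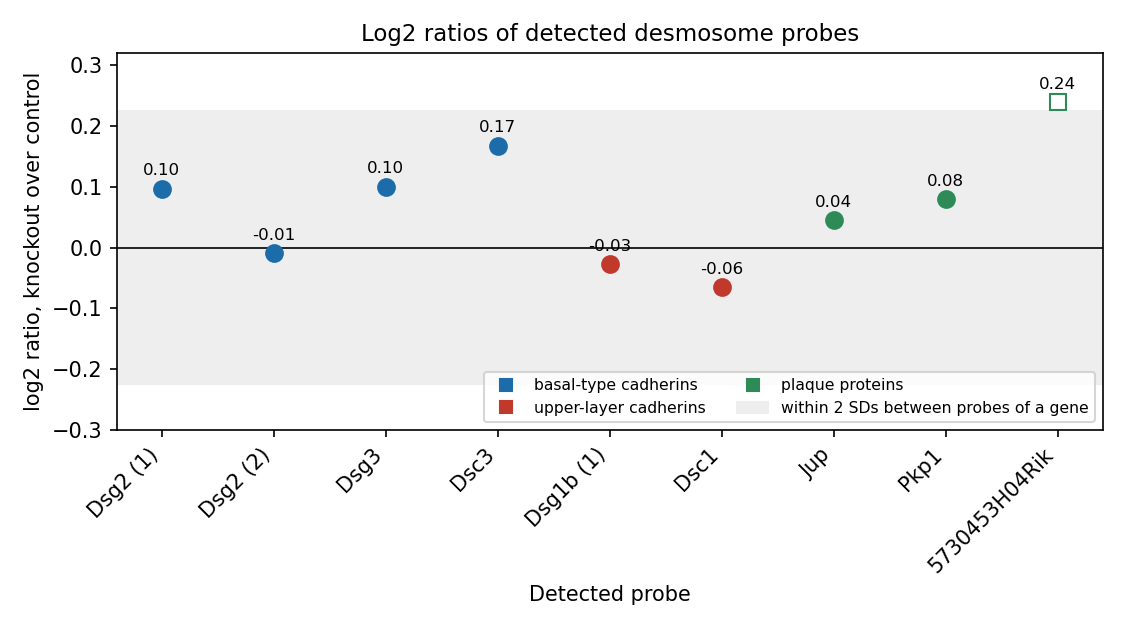
Log2 ratio, knockout over control, of each detected desmosome probe, coloured by role, with the probe listed under 5730453H04Rik as an open square and a grey band of 2 SDs between probes of a gene. The 8 detected probes lie inside the band, with Dsc3 highest at 0.17 and Dsc1 lowest at -0.06.

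Of the plaque proteins, Pkp1 (plakophilin 1, which clusters desmosomal cadherins and is lost in a human skin fragility syndrome) gave a strong signal. It read 7672 in the control and 8107 in the knockout, a log2 ratio of 0.08 or 1.06-fold. Jup (plakoglobin, shared with adherens junctions) read 303.6 in the control and 313.2 in the knockout, a log2 ratio of 0.04 or 1.03-fold. The knockout sample was slightly higher for both, by less than 1 SD between probes, with a median of 0.06 over 2 of 3 genes.

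Dsp had no probe under its own symbol or gene ID. One probe is listed under 5730453H04Rik, a name that RefSeq gives as a synonym of Dsp and of no other gene, although its accession is not matched to a current RefSeq transcript. It read 5064 in the control and 5978 in the knockout, a log2 ratio of 0.24 or 1.18-fold, just past 2 SDs between probes. It was looked up after the values were seen and is not counted among the members. With it as Dsp, 6 of 8 members had a ratio above 0, and still 0 reached 1.2-fold.

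The basal-type and upper-layer cadherins lay on opposite sides of 0 by their brightest probes. The upper-layer median was 0.15 below the basal-type median on the log2 scale (a difference of -0.15), a gap that rests on 2 and 3 genes and was not tested. With background-corrected signals it was -0.26. The 3 basal-type and both plaque genes stayed above the median of all genes, and both upper-layer genes below it, on signals before normalisation, after loess centring and with background correction. With background correction 0 of the 7 members reached 1.5-fold or 1.2-fold, where 2.65% and 20.8% of all genes did, and 5 of 7 lay above 0, where 52.2% of all genes did.

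**Figure D3:**
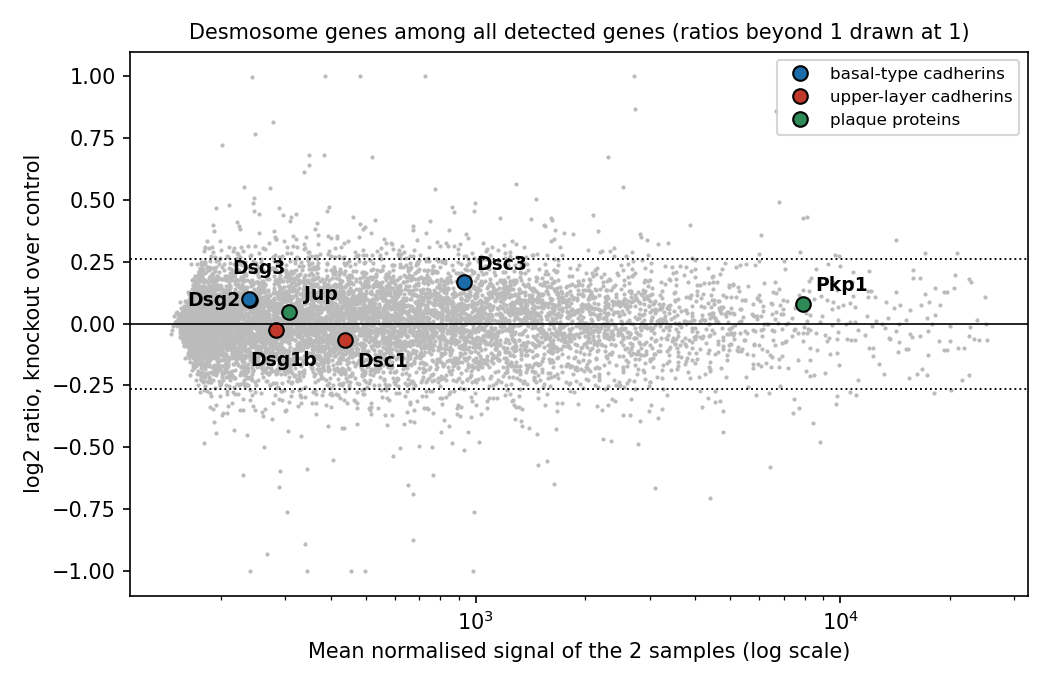
Log2 ratio, knockout over control, against the mean normalised signal of both samples (log axis) for all 8564 detected genes (grey) and the 7 detected desmosome genes (coloured by role), with dotted lines at 1.2-fold. The desmosome genes lie within the main cloud and inside the dotted lines.

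Marker genes of the layers gave the following values beside these groups. All 5 granular markers had a ratio below 0 (4 of 5 on signals before normalisation), where 4070 of all 8564 genes did in normalised signals. Their median was -0.15 in normalised signals, and their summed signal was 38268 in the control and 34045 in the knockout. The basal markers were divided, with 3 of 6 above 0, a median of 0.01, and summed signals of 55924 and 50366. Krt5, Krt14 and Krt15, which are bright and weigh most in that sum, were below 0, and Itga6, Itgb4 and Col17a1 were above 0. Spinous markers had a median of 0.05 with 2 of 4 above 0 and summed signals of 43645 and 45068. Hair follicle markers had 3 of 4 detected members below 0, a median of -0.27, and summed signals of 20750 and 16916, in which the undetected Krt25 is included. The part of the layer or follicle make-up in the cadherin ratios was not tested.

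Other genes of desmosomes and of corneodesmosomes (the modified junctions of the cornified layer) were described from a list of 9, of which 6 were detected, with 4 above 0 and a median of 0.04. Cdsn (corneodesmosin, a secreted adhesion protein of corneodesmosomes) was the member past 1.2-fold. It read 12190 in the control and 9983 in the knockout, a log2 ratio of -0.29 or 1.22-fold lower, and did not reach 1.2-fold on unscaled signals before normalisation (-0.16) or with background correction (-0.21). Cdsn also belongs to the granular markers above.

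Pkp3 (plakophilin 3, found throughout the epidermis) read 1899 in the control and 2055 in the knockout, a log2 ratio of 0.11. Pkp2 (plakophilin 2, best known from the heart) had ratios of -0.06 and -0.20 on the probes detected in both samples, and another probe read 177.1 in the control and 160.8, not detected, in the knockout, at least 1.07-fold lower. Perp (a membrane protein of desmosomes and a p63 target) read 189.0 and 191.3, a log2 ratio of 0.02. The ratios of probes detected in both samples lay within 2 SDs between probes.

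Ppl (periplakin, a plakin of the desmosome and the cornified envelope) gave 0.06 on its bright probe (4559 and 4765) and -0.25 on its dimmer one (455.7 and 384.1), so no direction can be given. Dsg4 (desmoglein 4, of the hair shaft and upper epidermis) read 156.6, not detected, in the control and 185.0 in the knockout, so it was at least 1.12-fold higher. With background correction its log2 ratio was 0.51, and it was then the member of this list past 1.2-fold. Dsg1c (a further desmoglein 1 copy) was not detected, and Evpl and Pkp4 had no probe by symbol, gene ID or accession.

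The keratins that desmosomes anchor had ratios on both sides of 0. Of the basal keratins, Krt5 read 19907 in the control and 16377 in the knockout, a log2 ratio of -0.28, Krt14 had a ratio of -0.20, and Krt15 one of -0.06. Of the keratins of differentiated layers, Krt1 had 0.11, Krt10 had 0.22 (14628 and 17016), and Krt2 had 0.02. The 3 basal keratins were thus below 0, where the basal-type cadherins were above it. This held on signals before normalisation, where 75.8% of all genes were above 0 without scaling. Krt5 was the one keratin of the 6 past 1.2-fold, where 5.86% of all genes were, and 0 were on signals before normalisation. With background correction 0 were past 1.2-fold as well, and Krt5 had a ratio of -0.18 and Krt14 one of -0.12.

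Adherens junctions, which share plakoglobin with desmosomes, were described by 6 genes. The 5 detected ones all had a ratio above 0, where 52.1% of all genes did, with a median of 0.13. All 5 were also above 0 on unscaled signals before normalisation, where 75.8% of all genes were. Cdh1 (E-cadherin) read 1374 in the control and 1506 in the knockout, a ratio of 0.13, and Cdh3 (P-cadherin of the basal layer) had 0.11, 0.10 and 0.09 on its 3 detected probes. Vcl (vinculin) had 0.16 and Ctnna1 (alpha-catenin) 0.09. Ctnnb1 (beta-catenin, the closest relative of plakoglobin) was the member past 1.2-fold, at 0.35 on one probe and 0.20 on the other, and Ctnnd1 was not detected.

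**Figure D4:**
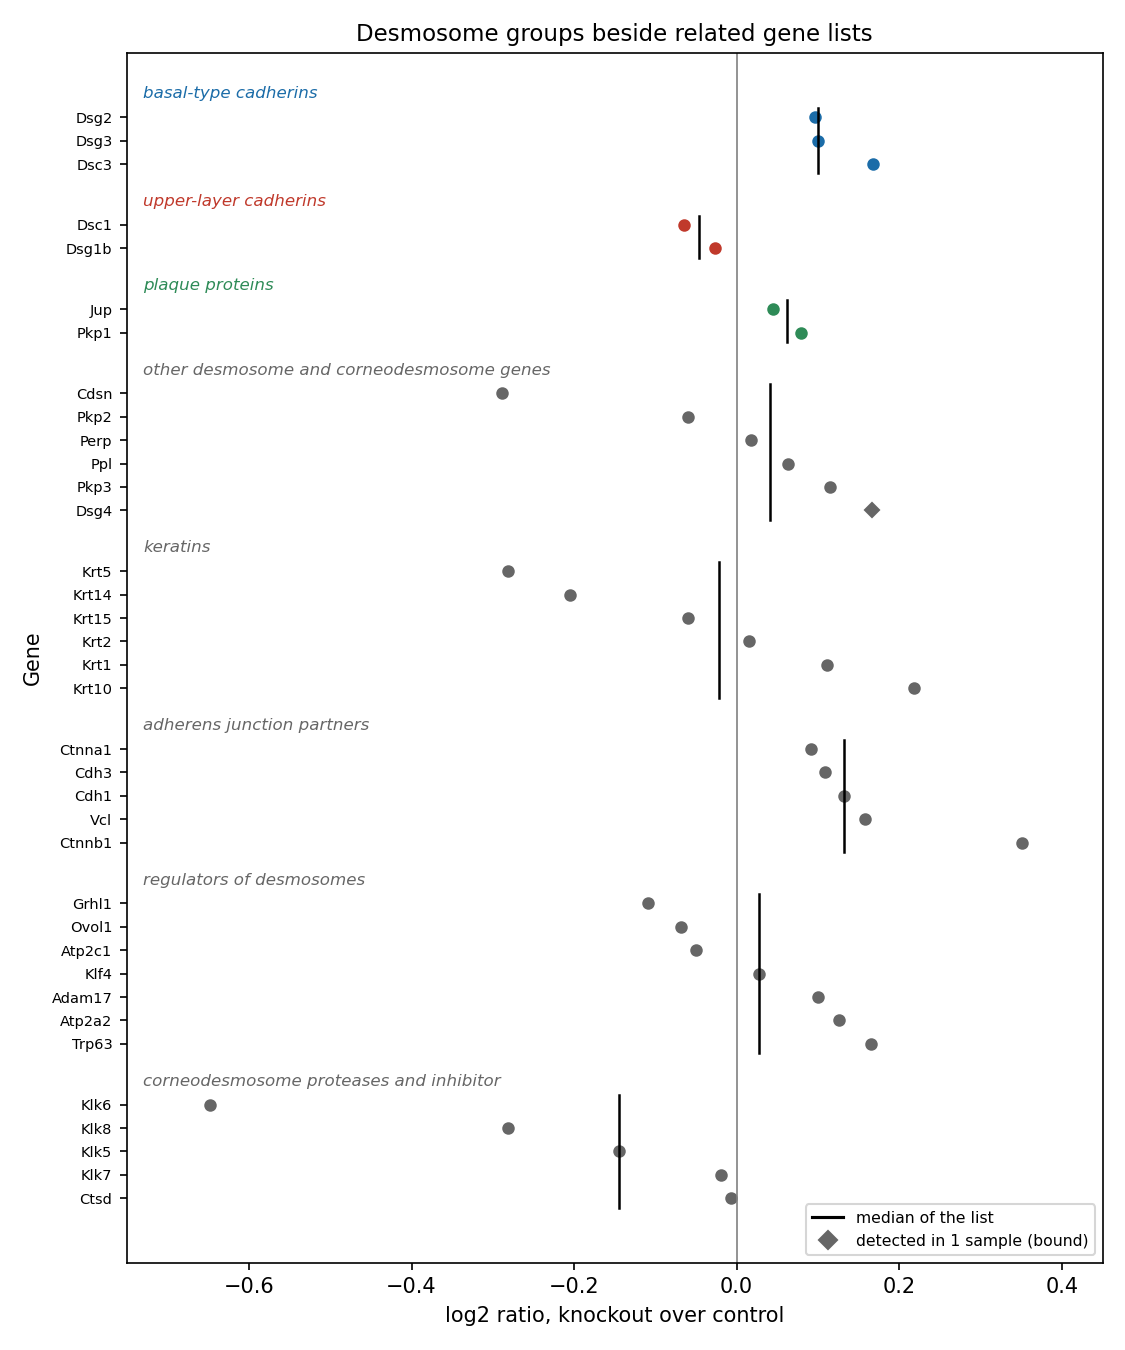
Log2 ratio, knockout over control, of every detected gene in the 3 desmosome groups (coloured) and in 5 related lists (grey), with a vertical line at each median and a diamond for Dsg4, whose value is a bound. The basal-type cadherins (median 0.10) and adherens junction genes (0.13) lie to the right of 0, and the corneodesmosome proteases (-0.14) lie to the left.

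Regulators of desmosomes showed no common direction. Of 10 listed genes 7 were detected, with 4 above 0 and a median of 0.03, and 0 reached 1.2-fold by their brightest probe. Trp63 (p63, the master transcription factor of stratified epithelia) had 0.17. Atp2a2 (the calcium pump SERCA2, mutated in Darier disease) gave 0.13 on the brighter of its probes and 0.29 on the dimmer, which was past 1.2-fold. Grhl1 (a transcription factor that activates desmoglein 1 in mouse epidermis) had -0.11 and -0.12 on its probes.

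Of 7 listed genes for the shedding of corneodesmosomes (proteases and their inhibitor), 5 were detected. Of these 2 differed by at least 1.2-fold, where 5.86% of all genes did. Both were lower in the knockout sample (1 of them, Klk6, also on signals before normalisation). All 5 had a ratio below 0 in the normalised signals, with a median of -0.14, where 4070 of all 8564 genes were below 0. On signals before normalisation 3 of the 5 were below 0 (median -0.05 unscaled). Spink5, their inhibitor, had no probe. Klk6 (kallikrein-related peptidase 6) read 2001 in the control and 1276 in the knockout, 1.57-fold lower. Klk8 was 1.22-fold lower (7024 and 5780), and Klk5 had a ratio of -0.14, within 2 SDs between probes. Klk7 (7592 and 7488, a ratio of -0.02) and Ctsd (178.9 and 178.1, a ratio of -0.01) had nearly equal signals in both samples.

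**Figure D5:**
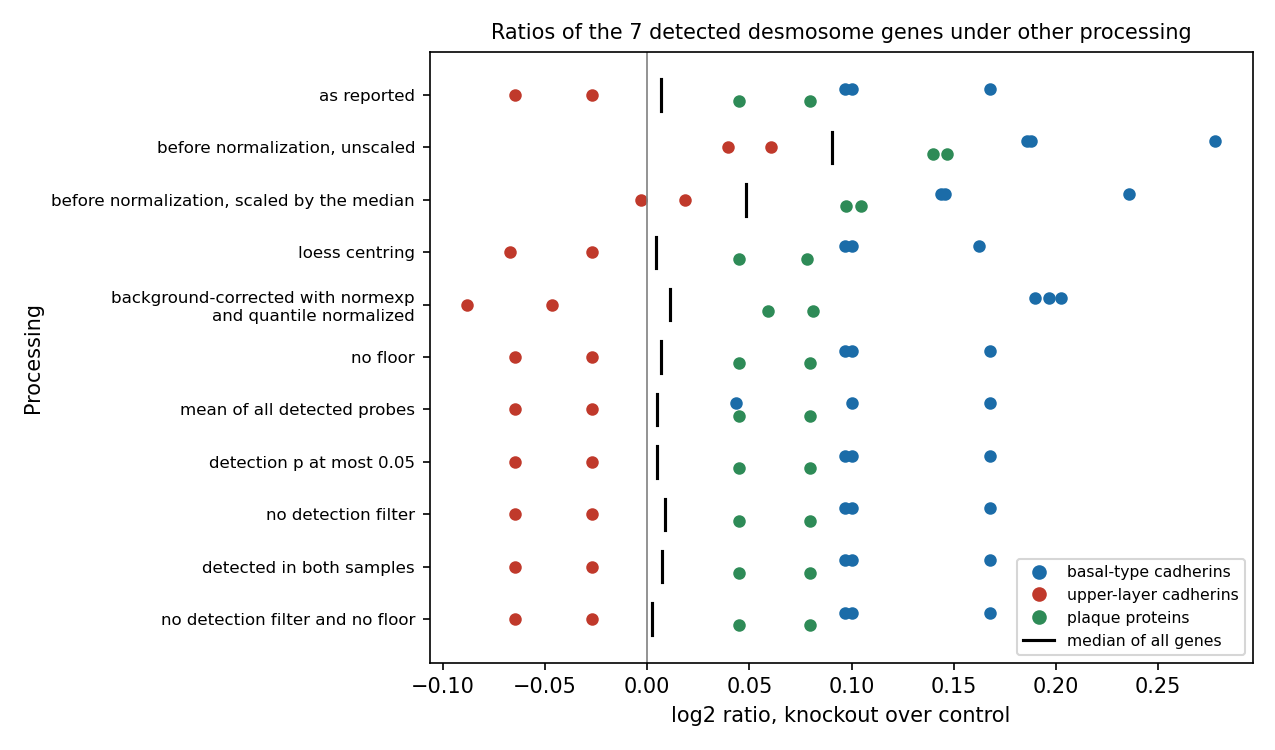
Log2 ratio, knockout over control, of the 7 detected desmosome genes (coloured by role) under the reported processing and 10 alternatives, with a black line at the median of all genes for each. The upper-layer genes lie left of the line and the others right of it in each row, while both upper-layer genes pass to the right of 0 on unscaled signals before normalisation, and Dsg1b also on the median-scaled ones. Rows that change only the floor, the detection filter or the averaging of probes repeat the reported ratios, apart from Dsg2 where probes are averaged.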

How the data were processed

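Total RNA of 3 mice was pooled for each genotype, labelled with biotin and read on Illumina bead arrays, 1 for each sample, per the labels' protocols. The authors deposited a linear intensity per probe before and after normalisation, and the submitters' processing notes name GenomeStudio 2011.1. How the signals were normalised is not stated in the labels or headers. Ranked intensities of both arrays matched within 0.172%, and background had not been subtracted (lowest intensity 106.2 in both). The deposited detection p-value compares a probe with negative control beads, per the file headers, and was the same in both tables. The value table of the series was identical to the normalised table.

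Symbols were updated by gene ID and then by accession through RefSeq (GRCm38.p6, names and neighbour order only), which matched 24358 of the 25697 probes. Between 42.0% and 42.4% of probes were detected. Folds of 1.5 and 1.2 served as thresholds of description, without tests. Background correction used limma 3.58.1 in R 4.3.3 (normexp from detection p-values, offset 16, then quantile normalisation). Loess centring used statsmodels 0.14.6 with a span of 0.3. The calculation was run on simulated data with planted folds of 1.5 or more, which are larger than any difference of the members. Genes chosen for naming were the members, Casr, the other desmosome, keratin and adherens junction genes, and the 3 largest absolute ratios among regulators and among proteases. The other detected proteases, Spink5 and some cell type markers are named as well. The members and lists were chosen with earlier results of these data known. In all, 9 alternatives were planned and 2 were added after seeing the data. No probe sequence was used here.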

Additional observations from a re-analysis of the deposited data

Results flagged for a closer look

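A probe outside the rule that chose the desmosome genes gave a strong signal in both samples. It is listed under 5730453H04Rik, a RefSeq synonym of Dsp, and read 5063.6 in the control and 5977.7 in the knockout, both far above the detection limit. It was flagged because its row is not counted among the members, and its ratio is given above as a separate value. Which transcript it measures was not tested.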

How the results depend on the processing

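On unscaled signals before normalisation 1 member (Dsc3) reached 1.2-fold, against 0 as reported, and 1044 of all genes did, against 502, with the median of all genes shifted to 0.09. With background correction 1779 genes reached 1.2-fold and 227 reached 1.5-fold (36 as reported), and the upper-layer minus basal-type difference was -0.26 (-0.15 as reported). Among the alternatives that changed this difference it lay between -0.26 and -0.13. It was -0.14 before normalisation, where scaling cannot alter it, and 5 alternatives left it as it was because they did not touch its median values. Dsg2, Dsg3, Dsc3, Jup and Pkp1 stayed above 0 in all 11. Dsc1 stayed below 0 in 10 and Dsg1b in 9, the exceptions being signals before normalisation. Changes of floor, detection filter or the Dsp probe could not move these ratios, and averaging probes moved only that of Dsg2. Only signals before normalisation, loess centring and background correction could change the other directions, so the counts say little about how stable they are. With background correction Dsg4 reached 0.51 (0.17 as reported) and Cdsn fell short of 1.2-fold at -0.21. The median of the other desmosome genes turned to -0.04 when all detected probes were averaged. Without the detection filter, Dsc2 and Dsg1a sat at the floor in both samples, and without the floor too they had ratios of -0.04 and -0.07. Unsubtracted background limits the dim probes of Dsg2, Dsg3, Dsg1b and Jup most. With 1 pool for each genotype, leaving out a replicate was not possible.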

Other observations

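The desmosomal cadherin genes are neighbours on mouse chromosome 18, in the RefSeq order Dsc3, Dsc2, Dsc1, Dsg1c, Dsg1a, Dsg1b, Dsg4, Dsg3, Dsg2. Along this order the log2 ratios were 0.17 for Dsc3, -0.06 for Dsc1, -0.03 for Dsg1b, a bound of 0.17 for Dsg4, and 0.10 for both Dsg3 and Dsg2, while Dsc2, Dsg1c and Dsg1a were not detected. The ratios below 0 thus belonged to genes in the middle of the cluster and those above 0 to genes nearer its ends, with Dsg2 at -0.01 on its second probe. The ratios of genes detected in both samples lay within 2 SDs between probes. Those of Dsc1 and Dsg1b turned above 0 on unscaled signals before normalisation, so this arrangement is described only. The upper-layer genes are themselves grouped in the middle, so position and role cannot be told apart.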
